A study of Mus musculus with 7 samples.

Results

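The 10 genes described here belong to iron handling: Hamp, Hamp2, Tfrc, Tfr2, Trf, Slc40a1, Fth1, Ftl1, Cp and Hfe. Hamp2 is included as the neighbouring copy of Hamp, and its part in iron control was not examined. The others carry iron into and out of liver cells, store it, or set its level in the body. All 10 were taken by name, as all non-control probes of the array that carry any of these gene names. This gave 15 of 55681 probes. All 15 entered the test, a dim probe of Tfrc and a dim probe of Cp only through their detection in Rbpj-/- liver. Tfrc has 3 probes, Trf, Ftl1 and Cp have 2 each, and the other 6 genes have 1 each. Expression was measured in whole liver of untreated C57BL/6J mice aged 4 weeks, on 1 array for each of 7 animals and with a single dye. All 7 carried floxed Rbpj on both alleles. The 3 Rbpj-/- mice (numbered 1 to 3 here) were AlfpCre+, so that Cre recombinase, under an Alfp promoter active in the embryonic liver, removed the gene from the liver lineage, and their livers are labelled as cholestatic. The 4 Rbpj+/+ mice (numbered 1 to 4) were AlfpCre- and are labelled as free of cholestasis. Deletion of Rbpj and cholestasis therefore cannot be told apart, and no group carried Cre without the floxed allele.

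Hepcidin, the peptide hormone encoded by Hamp, is secreted by hepatocytes and makes cells take ferroportin (Slc40a1), the exporter of iron, off their surface. Its transcription is driven by BMP ligands through SMAD proteins and by interleukin-6 through STAT3, and Hfe and Tfr2 take part in sensing the iron bound to transferrin (Trf). Iron-loaded transferrin enters cells through the transferrin receptor Tfrc, ferritin (Fth1 and Ftl1) stores iron, ceruloplasmin (Cp) oxidises it on its way out, and iron regulatory proteins stabilise Tfrc mRNA and block ferritin translation when iron is scarce.

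Mice have 2 neighbouring copies of the hepcidin gene, and the stretch below is shown because it decides whether the array can tell them apart. Both probes are 60 bases long, at 31727490 to 31727549 (Hamp) and 31707520 to 31707579 (Hamp2) of chromosome 7 in mouse build mm9, the build of the array's design. Each covers the end of the coding sequence with the stop codon. In the 51 coding bases that they share, the probes differ at 11 positions (78.4% identity), marked by capitals.
Hamp: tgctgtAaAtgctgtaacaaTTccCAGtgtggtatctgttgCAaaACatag
Hamp2: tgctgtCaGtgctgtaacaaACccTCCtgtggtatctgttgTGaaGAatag

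The promoters are shown because the BMP and STAT3 inputs act there. The 200 bases before the start of each gene come from RefSeq on GRCm38.p6, minus strand, at chr7:30944030-30944229 for Hamp and chr7:30924182-30924381 for Hamp2. Capitals mark the core of the BMP responsive element, GGCGCC, or the letters at the same place, and a match to the STAT site TTCNNNGAA. Both motifs are palindromes, so a search of both strands finds the same matches, and the matches do not overlap each other.
Hamp: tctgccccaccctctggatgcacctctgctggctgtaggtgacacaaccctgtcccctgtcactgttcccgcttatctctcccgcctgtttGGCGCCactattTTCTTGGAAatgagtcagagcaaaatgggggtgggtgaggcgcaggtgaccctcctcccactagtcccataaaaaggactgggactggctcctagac
Hamp2: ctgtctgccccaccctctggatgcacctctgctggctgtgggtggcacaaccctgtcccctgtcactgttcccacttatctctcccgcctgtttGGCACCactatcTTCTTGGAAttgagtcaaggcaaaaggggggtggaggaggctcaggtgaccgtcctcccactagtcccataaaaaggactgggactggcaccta
Shifted by 3 bases, the windows are identical at 186 of 200 positions (93.0%). Both hold TTCTTGGAA. Hamp holds GGCGCC with its first base at −109 from the start, and Hamp2 differs there by G4A, counted from the 5′ end of the hexamer with the base of Hamp first. Of 32851 RefSeq promoter windows of this length, 8.43% hold GGCGCC and 5.49% hold TTCNNNGAA. RefSeq windows were matched for 8 of the 10 genes, all but Trf and Slc40a1, and among the other 6 only Tfrc holds GGCGCC, in 1 of its 2 windows, while none holds TTCNNNGAA. A match is a description of the letters and not of binding.

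The scanner files give background-subtracted intensities without normalization between arrays. The values below are log2 intensities minus the 75th percentile of the array, so 0 stands for that percentile. The percentile itself did not overlap between the genotypes, at an intensity of 57.5 to 103 on Rbpj+/+ and 118 to 143 on Rbpj-/- arrays. The scaling therefore subtracted more from every Rbpj-/- array than from any Rbpj+/+ array. Differences are Rbpj-/- minus Rbpj+/+, a gene was called at an adjusted p below 0.1 (limma with Benjamini-Hochberg adjustment over all tested probes), and a gene with several probes was represented by the brightest. Of 18754 genes tested, 34.2% were called, 14.6% higher and 19.5% lower in Rbpj-/- liver, and the median log2 fold change was −0.13. The genotypes did not overlap in 36.5% of genes. The brighter Rbpj probe, on chromosome 5, read 0.60 ± 0.34 (SD, n = 4) against −0.54 ± 0.22 (SD, n = 3), with a log2 fold change of −1.13 in Rbpj-/- liver (adjusted p = 0.0115 from limma, or 0.108 without the filter on dim probes), or of −0.66 after normexp background correction, and whether that probe lies in the deleted part is not stated in the sources used here. Of 12 hepatocyte markers 11 were tested, and each was well above background on all 7 arrays. The Y-linked genes Ddx3y and Eif2s3y were well above background on all 7 arrays and neither probe of Xist on any Rbpj-/- array. In Rbpj+/+ liver 1 Xist probe was well above background on 1 of 4 arrays. Its intensity was 13.2 in Rbpj+/+ animal 1 and 1.69 to 2.11 in Rbpj+/+ animals 2 to 4. Rbpj+/+ animal 2 and Rbpj-/- animal 1 stood apart by brighter dim probes, with a median intensity of 18.7 and 29.6 against 4.99 to 7.75 on the other 5 arrays. All arrays lay on 1 slide, with Rbpj+/+ in row 1 and Rbpj-/- in row 2, so that row and genotype cannot be told apart.

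Of the 10 genes, 5 were called, beside 34.2% of all genes. Tfrc was higher, and Hamp, Tfr2, Trf and Ftl1 were lower. Hamp2, Slc40a1, Fth1, Cp and Hfe did not pass. The median log2 fold change over the 10 genes was −0.44. The higher level of Tfrc passed under all 19 alternative settings tried, whereas the calls of the 4 lower genes depended on how the arrays were scaled and on the filter on dim probes. Without Rbpj+/+ animal 3 or without Rbpj-/- animal 2 only 2 of the 10 genes passed, and without Rbpj-/- animal 1 only 3.

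The hormone gene Hamp was lower in cholestatic liver. Its normalized log2 intensity was 7.76, 7.22, 8.36 and 8.78 in Rbpj+/+ animals 1 to 4, and 7.12, 6.77 and 5.33 in Rbpj-/- animals 1 to 3. The genotypes did not overlap, but Rbpj-/- animal 1 came close to Rbpj+/+ animal 2. Before scaling the intensities overlapped, at 12779 to 32848 in Rbpj+/+ liver and 19873, 14180 and 4739 in Rbpj-/- animals 1 to 3. The genotypes differed by −1.62 on the log2 scale (SE 0.49, 95% interval −2.73 to −0.52, adjusted p = 0.0426 from limma), a 3.08-fold lower level. With the 7 animals reassigned in all 35 ways, an exact two-sided permutation test gave p = 0.0571, the smallest value possible for 4 against 3 animals, and the same p was found for the other 4 called genes. Much of the difference came from Rbpj-/- animal 3, without which it was −1.08 (adjusted p = 0.121), and the call was also lost without Rbpj+/+ animal 3 (−1.51, adjusted p = 0.108) and under quantile normalization (−1.34, adjusted p = 0.11). In bulk tissue, fewer hepatocytes and less Hamp mRNA per hepatocyte cannot be told apart. Among hepatocyte markers, 8 of 11 were lower and none higher (72.7%, beside 34.2% of all genes), with a median log2 fold change of −0.77. Their mean log2 level was 7.60 to 8.25 in Rbpj+/+ and 7.31 to 7.71 in Rbpj-/- animals, which overlap. Alb, a marker of this list named after its values were seen, went from −0.78 to −0.10 under quantile normalization. The counts and levels of the marker lists were not recomputed under other scalings. The part of these markers in the values of Hamp was not tested.

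Hamp2, the neighbouring hepcidin gene, varied more between animals than Hamp, with an SD of 1.12 (n = 4) and 1.91 (n = 3) against 0.68 and 0.95. Its normalized log2 intensity was 5.25, 5.14, 7.36 and 6.84 in Rbpj+/+ animals 1 to 4. In Rbpj-/- animals 1 to 3 it was 3.40, 3.37 and 6.70. Rbpj-/- animals 1 and 2 lay below all Rbpj+/+ animals, whereas animal 3 lay among them. The log2 fold change of −1.66 (SE 0.87, 95% interval −3.62 to 0.31) did not pass (adjusted p = 0.194 from limma). Without Rbpj-/- animal 3 it was −2.76 and passed (adjusted p = 0.0276 from limma).

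Rbpj-/- animal 3 thus combined the lowest Hamp of all 7 animals with a Hamp2 value inside the Rbpj+/+ range. Relative to the Rbpj+/+ mean of the same probe, the log2 difference in Rbpj-/- animal 3 was −2.70 for Hamp and 0.55 for Hamp2. In Rbpj-/- animals 1 and 2 the order was the opposite, with −0.91 and −1.26 for Hamp and −2.75 and −2.77 for Hamp2. Within Rbpj+/+ liver both probes lay below their means in animals 1 and 2 and above them in animals 3 and 4. Over the 7 animals the correlation of Hamp with Hamp2 was r = 0.27, given as a description. The probes most like Hamp over the same 7 arrays were those of Txndc11 (r = 0.994), of an intergenic transcript of chromosome 5 (r = 0.974) and of Gm10371 (r = 0.972), chosen as the highest of all tested genes, and of these only Gm10371 passed the test of the genotypes (log2 fold change −0.54, adjusted p = 0.0953 from limma).

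**Figure D1:**
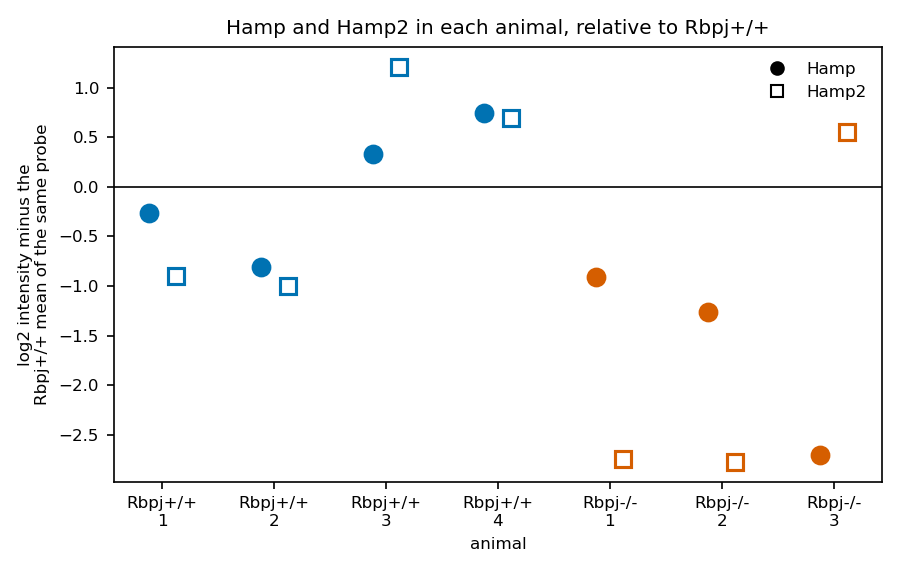
Normalized log2 intensity of Hamp (filled circles) and Hamp2 (open squares) in each animal, minus the Rbpj+/+ mean of the same probe, with Rbpj+/+ in blue and Rbpj-/- in orange and 1 array per point. In Rbpj-/- animals 1 and 2 Hamp2 lay further below 0 than Hamp, while in Rbpj-/- animal 3 Hamp was at −2.70 and Hamp2 at 0.55.

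Tfrc, the receptor that takes up iron-loaded transferrin, showed the largest difference of the 10 genes. Its brightest probe lies at 32632255 to 32632314 of chromosome 16 (mm9). The normalized log2 intensity was −0.99, −2.12, −0.53 and −1.56 in Rbpj+/+ animals 1 to 4 and 1.26, 2.32 and 0.69 in Rbpj-/- animals 1 to 3. The genotypes did not overlap, and the lowest Rbpj-/- animal lay above the highest Rbpj+/+ animal by more than the SD of either group (0.69, n = 4, and 0.83, n = 3). The genotypes differed by 2.73 on the log2 scale (SE 0.46, 95% interval 1.69 to 3.76, adjusted p = 0.0051 from limma), a 6.61-fold higher level. The intensities before any scaling did not overlap either, at 19.7 to 51.7 in Rbpj+/+ and 190 to 647 in Rbpj-/- liver. Over 19 alternatives the log2 fold change lay between 1.69 and 3.09 and the adjusted p between 0.00146 and 0.0648.

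The other 2 probes of Tfrc were dimmer. The probe at 32620470 to 32620529 of chromosome 16 read −1.86, −2.07, −0.38 and −2.03 in Rbpj+/+ animals 1 to 4, and 0.12, 0.47 and −0.42 in Rbpj-/- animals 1 to 3. Rbpj+/+ animal 3 lay just above Rbpj-/- animal 3, so the genotypes overlapped, and the log2 fold change was 1.64 (adjusted p = 0.0263 from limma, 0.104 without Rbpj-/- animal 2 and 0.168 without the filter on dim probes), or 0.71 after normexp background correction. The remaining probe, which the array's design does not place on the genome, did not rise well above background in Rbpj+/+ liver (0 of 4 arrays) but did in Rbpj-/- liver (3 of 3). Measured against the dimmest signals well above background, its level in Rbpj-/- liver was at least 1.46-fold that in Rbpj+/+ liver. Its adjusted p of 0.0274 from limma supports nothing further, since the probe was tested only because of the genotype in which it is bright. That p was 0.108 without Rbpj-/- animal 2 and 0.171 without the filter on dim probes, and with normexp background correction the fitted difference was −0.06.

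Tfrc is also abundant in red cell precursors. Of 14 erythroid markers 9 were tested, none was higher and 3 were lower in Rbpj-/- liver (33.3%, beside 34.2% of all genes). Among the lower was Alas2, the first enzyme of heme synthesis in that lineage, named after its values were seen. Its log2 fold change was −2.13 (adjusted p = 0.012 from limma, or 0.106 without the filter on dim probes). The mean log2 level of the 9 markers was 3.1 to 4.08 in Rbpj+/+ and 2.25 to 3.78 in Rbpj-/- animals, which overlap. Epb42, Rhag, Rhd and Trim10, also erythroid markers, were among those that did not reach the detection limit on enough arrays to be tested. Of 12 Kupffer cell and macrophage markers, all well above background on every array, 10 were higher (83.3%), and their mean log2 level was 2.16 to 2.69 in Rbpj+/+ and 4.19 to 4.46 in Rbpj-/- animals. The part of these cells in the Tfrc signal was not tested.

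Tfr2, the hepatocyte receptor that takes part in sensing iron-loaded transferrin, was slightly lower. Its probe (chromosome 5, 138028646 to 138028705) read 7.38, 6.77, 7.08 and 7.13 in Rbpj+/+ animals 1 to 4, and 6.43, 6.62 and 6.47 in Rbpj-/- animals 1 to 3. The groups did not overlap, with a log2 fold change of −0.58 (SE 0.20, adjusted p = 0.0655 from limma). Before scaling, the Rbpj-/- intensities, at 10484 to 12750, lay inside the Rbpj+/+ range of 7774 to 17032. The difference of Tfr2 therefore depended on the scaling. The call was lost without any 1 animal other than Rbpj+/+ animal 2 (adjusted p from 0.131 to 0.165 from limma) and under quantile normalization, where the log2 fold change was −0.30. Hfe, the partner of Tfr2 and Tfrc in iron sensing, ranged from 2.82 to 3.58 in Rbpj+/+ and from 3.06 to 3.44 in Rbpj-/- liver. Its log2 fold change was −0.05 (95% interval −0.57 to 0.47, adjusted p = 0.89 from limma), and the sign turned under several settings.

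Transferrin (Trf), the carrier of iron in plasma, was lower by both of its probes. The brighter probe, at 103112826 to 103112885 of chromosome 9, read 9.45, 9.40, 9.89 and 9.57 in Rbpj+/+ animals 1 to 4 and 8.95, 8.91 and 8.98 in Rbpj-/- animals 1 to 3. The groups were apart, and the Rbpj-/- animals lay close together (SD 0.03, n = 3). The log2 fold changes were −0.63 (adjusted p = 0.0432 from limma) and, for the other probe, −0.58 (adjusted p = 0.0592 from limma). This difference depended on the scaling. Before it, the Rbpj-/- intensities of the brighter probe, at 59584 to 70690, lay inside the Rbpj+/+ range of 54589 to 71956. Quantile normalization gave −0.06 (adjusted p = 0.741 from limma). The call was also lost without Rbpj+/+ animal 3, Rbpj-/- animal 1 or Rbpj-/- animal 2 (adjusted p = 0.112, 0.106 and 0.132 from limma). Alb, the albumin gene, named after its values were seen, moved in a like way, at −0.78 with the 75th percentile and −0.10 under quantile normalization.

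The exporter and the oxidase of iron did not pass. Slc40a1, or ferroportin, the target of hepcidin, read 5.47, 5.12, 4.86 and 4.72 in Rbpj+/+ animals 1 to 4, and 4.67, 4.81 and 5.09 in Rbpj-/- animals 1 to 3. The groups overlapped, with a log2 fold change of −0.18 (95% interval −0.71 to 0.34, adjusted p = 0.592 from limma). The brighter probe of Cp ranged from 7.93 to 8.64 in Rbpj+/+ and from 8.37 to 8.74 in Rbpj-/- liver, with a log2 fold change of 0.26 (95% interval −0.25 to 0.77, adjusted p = 0.422 from limma). Under quantile normalization that probe passed at 0.67 (adjusted p = 0.0519 from limma). The dim probe of Cp, well above background on 3 of 4 Rbpj+/+ arrays, gave a difference of the opposite sign (−0.42, adjusted p = 0.412 from limma).

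Of the ferritin genes, only the light chain passed, and by 1 of its 2 probes. The brighter Ftl1 probe read 8.27, 8.21, 8.57 and 8.59 in Rbpj+/+ animals 1 to 4 and 7.69, 7.74 and 7.81 in Rbpj-/- animals 1 to 3. The groups were apart, with a log2 fold change of −0.66 (SE 0.19, adjusted p = 0.0338 from limma). Before scaling, the Rbpj-/- intensities of this probe, at 26564 to 29374, lay inside the Rbpj+/+ range of 21768 to 31750. The difference of this probe therefore depended on the scaling. The other Ftl1 probe overlapped between the genotypes, at 7.14 to 7.75 in Rbpj+/+ and 7.33 to 8.02 in Rbpj-/- liver, with a log2 fold change of 0.10 (adjusted p = 0.784 from limma). The array's design places both probes on chromosome 17, while RefSeq gives the Ftl1 promoter on chromosome 7, and light chain sequences occur in several near-identical copies, so which transcripts the probes report is uncertain. The call was lost without Rbpj-/- animal 2 (adjusted p = 0.107 from limma) and under quantile normalization (−0.30). Fth1, the heavy chain that oxidises iron for storage, ranged from 8.78 to 9.38 in Rbpj+/+ and from 8.72 to 8.98 in Rbpj-/- liver, with a log2 fold change of −0.29 (95% interval −0.76 to 0.17, adjusted p = 0.32 from limma) that turned to 0.23 under quantile normalization.

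**Figure D2:**
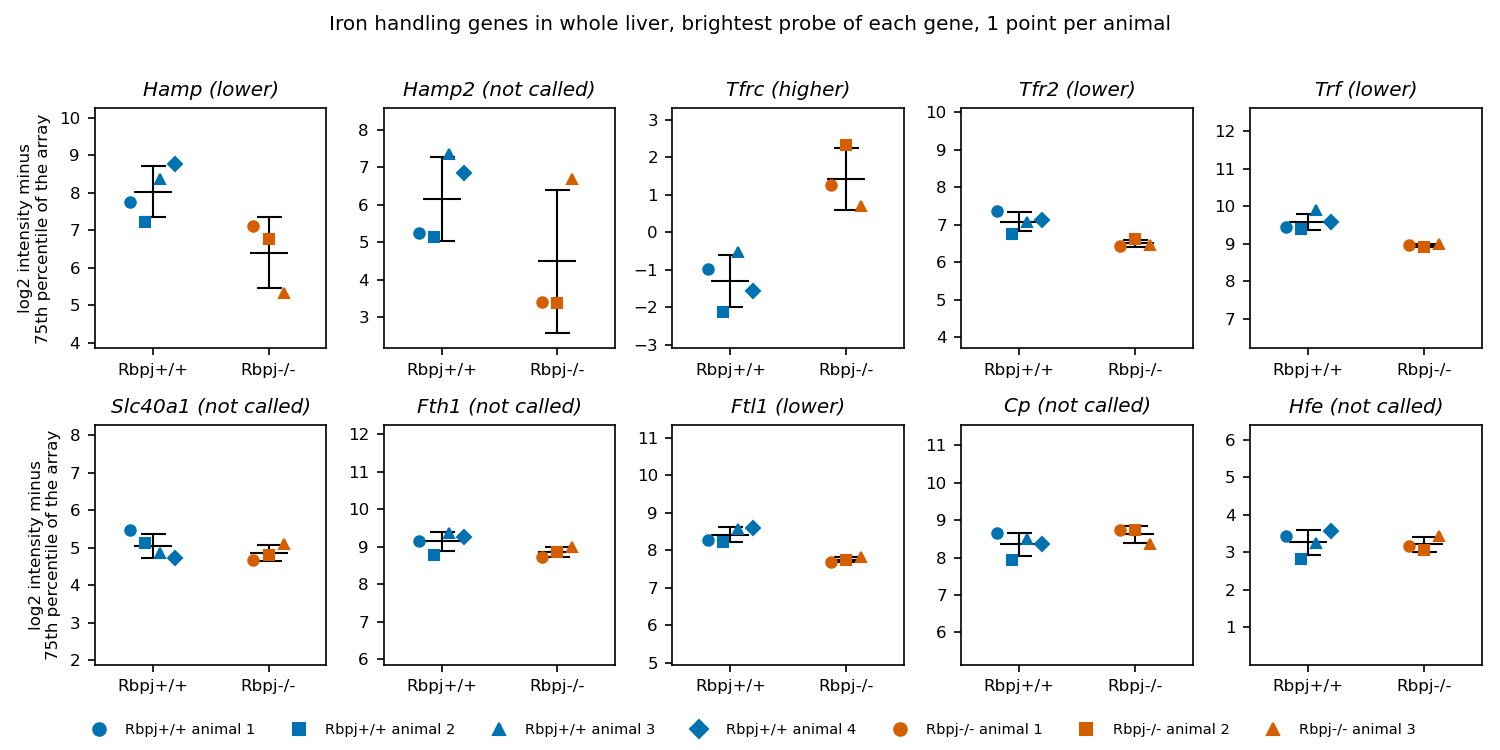
Normalized log2 intensity of the brightest probe of each of the 10 genes, 1 point per animal, with the mean and SD of each genotype in black (n = 4 and n = 3), where every panel spans the same range of log2 units around its own middle. Tfrc lies higher in all 3 Rbpj-/- animals, and Hamp2 shows Rbpj-/- animal 3 apart from the other 2.

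**Figure D3:**
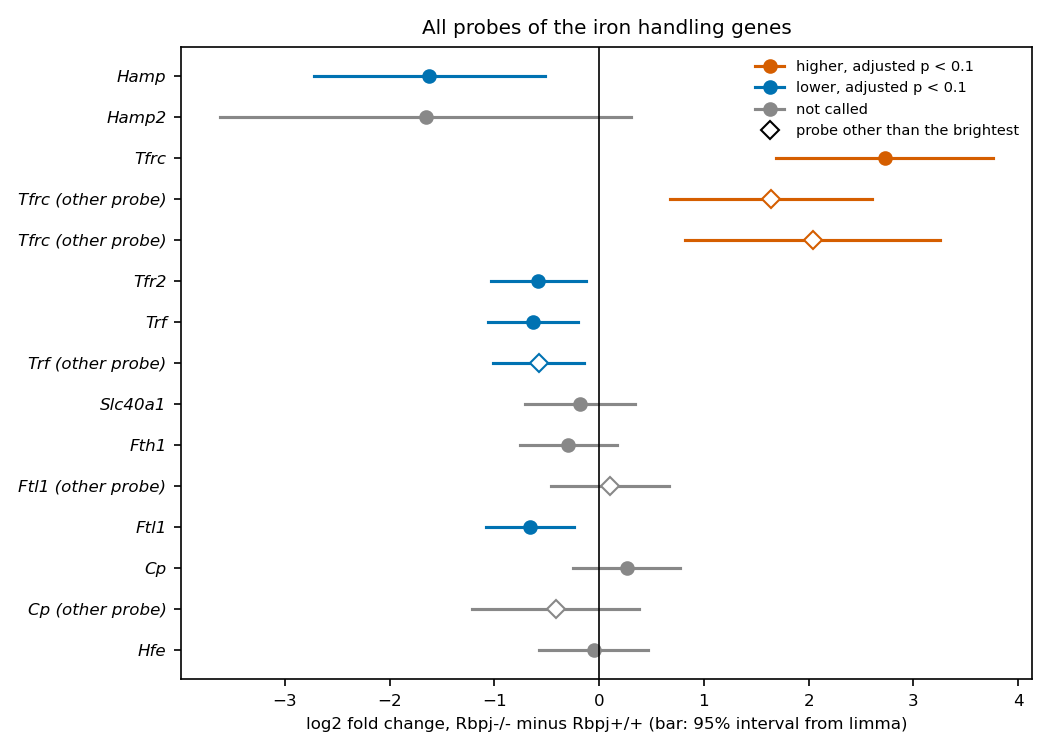
Log2 fold change (Rbpj-/- minus Rbpj+/+) of all 15 probes with 95% interval from limma, where circles are the brightest probe of a gene and diamonds its other probes. All 3 Tfrc probes lie above 0, both Trf probes below it, and the 2 Ftl1 probes differ, at −0.66 and 0.10. The Tfrc probe that is not placed on the genome was tested only through its detection in Rbpj-/- liver and adds no support.

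The regulators of hepcidin were read from a list of 28 genes, of which 26 were tested. Of these 6 were higher and 3 lower (34.6%, beside 34.2% of all genes), with a median log2 fold change of 0.01. Smad9, a SMAD of the BMP branch, was lower in every Rbpj-/- animal, at 0.02, −0.37, −0.44 and −0.28 in Rbpj+/+ animals 1 to 4 against −2.65, −1.77 and −2.65 in Rbpj-/- animals 1 to 3. Its log2 fold change was −2.08 (adjusted p = 0.00171 from limma) and passed under all 19 alternatives, although normexp background correction brought it to −0.99. Cebpa, a hepatocyte transcription factor that activates Hamp, was 5.07, 4.63, 4.97 and 4.89 in Rbpj+/+ animals 1 to 4 and 3.43, 3.24 and 4.95 in Rbpj-/- animals 1 to 3. Rbpj-/- animal 3 lay within the Rbpj+/+ range of Cebpa, as it did for Hamp2, whereas its Hamp value, 5.33, was the lowest of all animals. A link of Cebpa to Hamp or Hamp2 was not tested. The log2 fold change of Cebpa, −1.01 (adjusted p = 0.0877 from limma), was not called under 12 of 19 alternatives. These include quantile normalization (−0.90, adjusted p = 0.137 from limma), normexp background correction (−0.78, adjusted p = 0.103 from limma), no filter on dim probes (adjusted p = 0.337 from limma), and leaving out Rbpj+/+ animal 1, 3 or 4 or Rbpj-/- animal 1 or 2 (adjusted p from 0.146 to 0.287 from limma). Without Rbpj-/- animal 3 the log2 fold change of Cebpa was −1.55 (adjusted p = 0.00621 from limma).

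Along the interleukin-6 input, Il6st was higher, while Il6ra, the receptor of the cytokine, and Stat3 did not pass (log2 fold changes −0.18 and 0.15). Il6st, the signalling receptor chain gp130, was 2.90, 2.31, 2.55 and 2.90 in Rbpj+/+ animals 1 to 4 and 4.29, 3.59 and 3.62 in Rbpj-/- animals 1 to 3. The groups did not overlap, with a log2 fold change of 1.17 (adjusted p = 0.0131 from limma, or 0.115 without the filter on dim probes). Il6 rose well above background on 0 of 4 Rbpj+/+ and 3 of 3 Rbpj-/- arrays, a level at least 1.73-fold that of Rbpj+/+ liver. Its adjusted p of 0.0187 from limma is no independent support, since Il6 entered the test only through Rbpj-/- liver, and its fitted difference was −0.02 after normexp background correction. Socs3, the feedback inhibitor induced by STAT3, was 2.57, 2.49, 1.72 and 1.44 in Rbpj+/+ animals 1 to 4 and 5.20, 5.59 and 2.99 in Rbpj-/- animals 1 to 3, with a log2 fold change of 2.54 (adjusted p = 0.0173 from limma, or 0.13 without the filter on dim probes).

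Along the BMP input, named after their values were seen, Bmp6, the BMP ligand induced by iron, and Hjv, its coreceptor hemojuvelin, were higher, and Tmprss6, the protease that cleaves hemojuvelin, was lower. Their log2 fold changes were 0.96 (adjusted p = 0.044), 0.84 (adjusted p = 0.0599) and −0.55 (adjusted p = 0.0877 from limma). They were picked from the hepcidin regulators, of which 17 of 26 tested genes did not pass. Smad9, of the same branch, was lower (log2 fold change −2.08). The genes picked here therefore do not describe the BMP input as a whole. Bmp6 and Hjv lay higher in all 3 Rbpj-/- animals than in any Rbpj+/+ animal, and Tmprss6 overlapped. Bmp6 lay near background, well above it on 3 of 4 Rbpj+/+ and 3 of 3 Rbpj-/- arrays, so that it too entered the test through Rbpj-/- liver. It did not pass without Rbpj+/+ animal 3 or Rbpj-/- animal 2, after normexp background correction (0.04) or under quantile normalization. Hjv did not pass without Rbpj+/+ animal 3 or Rbpj-/- animal 2 or 3 or without the filter on dim probes. Tmprss6 was not called under 11 of 19 alternatives, among them normexp background correction (−0.25, adjusted p = 0.282 from limma), quantile normalization (−0.29, adjusted p = 0.219 from limma), and leaving out Rbpj+/+ animal 1, 3 or 4 or Rbpj-/- animal 1 or 2.

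Iron and heme transport and iron regulation were read from 41 further genes, of which 36 were tested, with 8 higher and 5 lower (36.1%, median log2 fold change 0.08). Lcn2, or lipocalin 2, which binds the siderophores that carry iron, showed the largest difference, at 5.80, 1.79, 2.28 and 5.26 in Rbpj+/+ animals 1 to 4 and 9.67, 8.57 and 8.94 in Rbpj-/- animals 1 to 3. The Rbpj+/+ animals were widely spread, but all lay below the Rbpj-/- animals (log2 fold change 5.28, adjusted p = 0.00643 from limma). The Steap genes encode metalloreductases and related proteins. Steap4 rose by a log2 fold change of 2.61 (adjusted p = 0.00937 from limma), and Lcn2 and Steap4 passed under all 19 alternatives. Steap1 was well above background on 1 of 4 Rbpj+/+ and 3 of 3 Rbpj-/- arrays and so entered the test only through Rbpj-/- liver. Its fitted log2 fold change, 3.42 (adjusted p = 0.00893 from limma), therefore rests on values near background in Rbpj+/+ liver, and it was 0.72 after normexp background correction (adjusted p = 0.0404 from limma).

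Of the same list, and again named after their values were seen, Steap2 (log2 fold change 1.93, adjusted p = 0.00488 from limma) and Hmox1, the heme oxygenase that frees iron from heme (1.39, adjusted p = 0.00453 from limma), were higher under all 19 alternatives. The probes of Hmox1 differed in size, with 0.54 for the mean over its tested probes (adjusted p = 0.0655 from limma). Ireb2, the iron regulatory protein IRP2, was lower, at −0.75, −1.24, −0.54 and −0.86 in Rbpj+/+ animals 1 to 4 against −1.80, −1.56 and −2.04 in Rbpj-/- animals 1 to 3. The groups did not overlap (log2 fold change −0.95, adjusted p = 0.0192 from limma), and the call was lost under quantile normalization (adjusted p = 0.141) and without the filter on dim probes, and normexp background correction gave −0.49.

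Acute phase genes, which interleukin-6 induces in hepatocytes together with Hamp, were read as a neighbouring programme. All 17 were tested, with 8 higher and 2 lower (58.8%, beside 34.2% of all genes) and a median log2 fold change of 1.18. Orm3, an orosomucoid, was 0.73, −0.34, 0.12 and 0.25 in Rbpj+/+ animals 1 to 4 and 5.45, 3.77 and 4.57 in Rbpj-/- animals 1 to 3 (log2 fold change 4.41, adjusted p = 0.000442 from limma). Saa1, a serum amyloid A, read 8.58 in Rbpj+/+ animal 1 and 3.94 to 6.19 in the other 3, against 7.63 to 9.15 in Rbpj-/- liver. Rbpj+/+ animal 1 thus lay within the Rbpj-/- range, and the log2 fold change of 2.64 (adjusted p = 0.0723 from limma) was lost without any 1 animal other than Rbpj+/+ animal 1, and was 1.71 without Rbpj+/+ animal 2 and Rbpj-/- animal 1. In the same livers Hamp was called lower, and of the 17 acute phase genes 8 were called higher, 2 lower and 7 did not pass. A link between Hamp and these genes was not tested.

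Markers of further cell types were read in the same livers, beside the 34.2% called over all genes. Of tested markers, 4 of 9 neutrophil markers were higher and 1 lower (55.6%), 5 of 10 liver endothelial markers were higher and 1 lower (60.0%), 4 of 10 hepatic stellate cell markers were higher (40.0%), and 2 of 6 cholangiocyte markers were higher (33.3%, with a median log2 fold change of −0.10). The mean log2 level was −2.36 to −0.45 in Rbpj+/+ and −0.21 to 0.82 in Rbpj-/- animals for neutrophil, 1.28 to 1.83 and 1.94 to 2.30 for endothelial, −0.03 to 0.51 and 0.57 to 0.90 for stellate, and −1.48 to −0.76 and −1.34 to −0.21 for cholangiocyte markers, and of these only the cholangiocyte means overlapped between the genotypes. The part of these cells in the values of Lcn2, the Steap genes, Hmox1, Bmp6 and the acute phase genes was not tested.

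**Figure D4:**
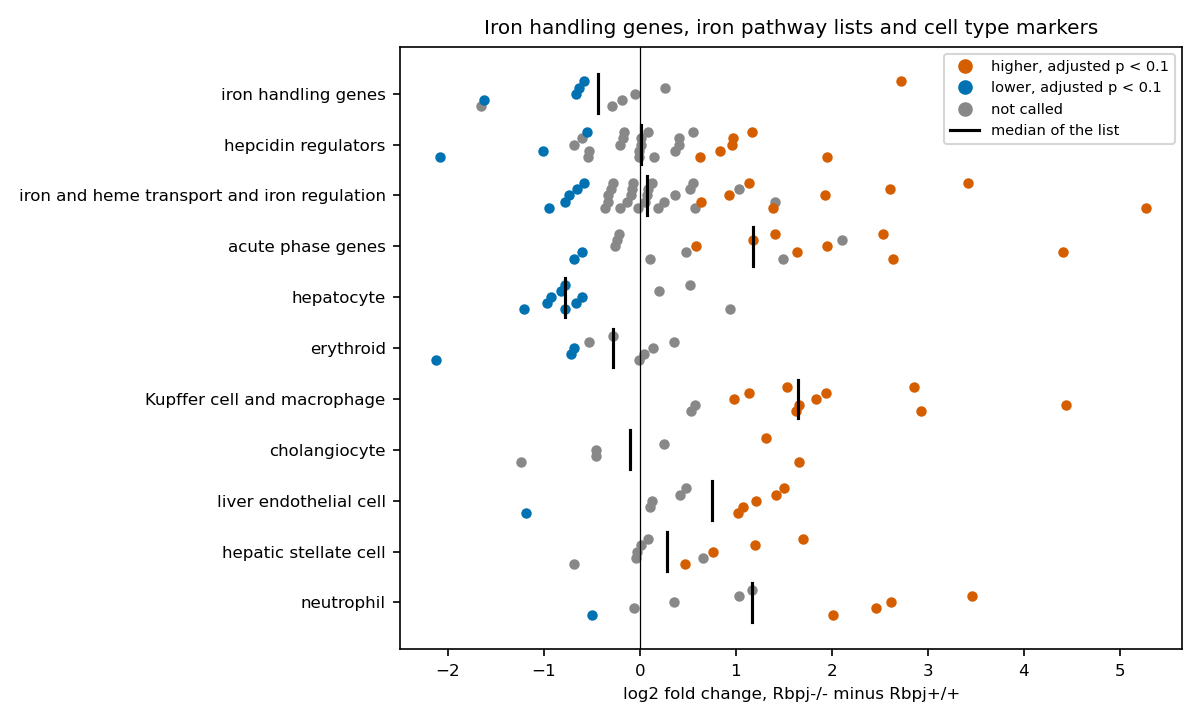
Log2 fold change (Rbpj-/- minus Rbpj+/+) of the tested genes of each list, 1 point per gene, coloured by the limma call, with the median of the list as a black bar. The medians are −0.44 for the 10 iron handling genes, 0.01 for hepcidin regulators, −0.77 for hepatocyte and 1.64 for Kupffer cell and macrophage markers.

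**Figure D5:**
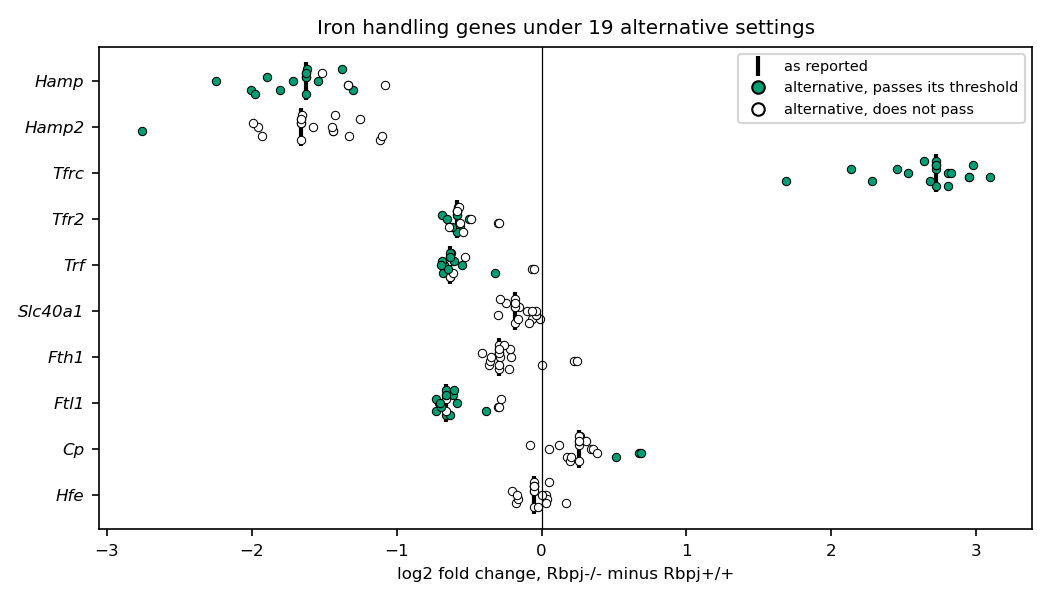
Log2 fold change of each of the 10 genes as reported (black bar) and under 19 alternative settings (points, filled where the setting's own threshold was passed). All points of Tfrc are filled and lie between 1.69 and 3.09, whereas those of Fth1, Cp and Hfe lie on both sides of 0.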

How the data were processed

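Whole liver RNA of 4 Rbpj+/+ and 3 Rbpj-/- mice was labelled with Cy3 and hybridised to 7 one-colour Agilent arrays. The deposited intensity values were made by the authors with Feature Extraction 10.7.3.1 (version per the labels) and are background-subtracted and detrended, with no normalization between arrays. The deposited log2 values of the series matrix, which the authors made from the same arrays, were used as an alternative. They lie close to the quantile-normalized values rather than to those shifted by the percentile. Control spots and spots marked as non-uniform or population outliers were left out, and no spot was saturated. Duplicate spots were combined by geometric mean, and the log2 values were shifted by the 75th percentile of their array, as the study's methods state. Detection on an array required the marks for a positive, significant and well-above-background signal, and probes detected in all animals of either genotype were tested. Well above background were 41.1% to 64.9% of probes per array. Precision is limited by the number of arrays.

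The genotype effect was fitted with limma 3.58.1 (R 4.3.3), which stands for the study's shrinkage t statistic, and with an exact two-sided permutation test (scipy 1.17.1, Python 3.11.15), whose p doubles the smaller tail. Where a probe was well above background in 1 genotype only, a bound is given. The steps were tested on simulated data. The named genes are the 10 members with every probe, Rbpj, and the 3 called genes of each pathway list with the largest change. Called list genes well above background in 1 genotype only and the 3 genes most correlated with Hamp were named too. Alas2, Alb and the genes marked so in the text were named after their values were seen. Il6ra, Stat3 and single marker genes also lie outside this rule. Members and lists were chosen with earlier results of these data known. The alternatives were normexp correction (offset 50), quantile normalization, another percentile basis, other filters on dim probes, limma-trend, array weights, the series matrix, compromised spots kept, the mean over probes, a threshold of 0.05, and each animal left out. Leaving out Rbpj+/+ animal 2 and Rbpj-/- animal 1 together was added after the data were seen. Probe positions come from the design of the array (mm9), for which no annotation of exons was used here. Promoters are from RefSeq (GRCm38.p6).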

Additional observations from a re-analysis of the deposited data

Results flagged for a closer look

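The Tfrc probe on chromosome 16 at 32620470 to 32620529 had 1 Rbpj+/+ animal far from the other 3. Rbpj+/+ animal 3 read −0.38 where animals 1, 2 and 4 read −1.86, −2.07 and −2.03, and this gap was 0.872 of the whole range of the group, above Dixon's critical value of 0.829 for 4 samples. Chance gives such a gap in about 1 in 20 groups, and 1 of 35 probes examined in this way showed it. The brightest Tfrc probe had no such gap in the same animals.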

How the results depend on the processing

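The 10 genes and the counts were recomputed under 19 alternatives, and Tfrc and the absence of a call for Slc40a1 held under all of them. Quantile normalization and the series matrix left 2 of the 10 genes called, Tfrc and Cp, and since their values nearly coincide they count as 1 alternative in effect. They gave, in this order, −1.34 and −1.33 for Hamp, −0.30 and −0.29 for Tfr2, −0.063 and −0.054 for Trf and −0.30 and −0.30 for Ftl1, none of which passed, 0.67 and 0.68 for Cp, which passed, and 0.23 and 0.24 for Fth1 and 0.033 and 0.035 for Hfe, which turned sign (log2 fold changes throughout). The median over all genes was −0.04 under quantile normalization, against −0.13. Normexp background correction gave 0.0065 for Fth1, 0.17 for Hfe and −0.021 for Il6, each of the opposite sign, and 0.51 for Cp, which passed. The percentile over probes detected on all arrays gave 0.030 for Hfe. The mean over all tested probes of a gene gave −0.28 for Ftl1, which no longer passed, and −0.077 for Cp, the opposite sign. At a threshold of 0.05, Tfr2 (−0.58) was not called. Without the filter on dim probes, which brought 35666 genes into the adjustment, 1 of the 10 genes, 6 of the iron pathway genes (22 with the filter) and 1643 of all genes (6406 with it) passed, and Hamp (−1.62), Tfr2 (−0.58), Trf (−0.63) and Ftl1 (−0.66) did not.

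With each animal left out in turn, 2 to 5 of the 10 genes, 12 to 24 iron pathway genes and 3717 to 7101 of all genes passed. The lowest counts of pathway genes came without Rbpj-/- animal 1 (13) and without Rbpj-/- animal 2 (12), and that of all genes without Rbpj-/- animal 2. The log2 fold change then lay between −1.98 and −1.08 for Hamp, −2.76 and −1.10 for Hamp2, −0.69 and −0.49 for Tfr2, −0.69 and −0.53 for Trf, −0.73 and −0.60 for Ftl1, and −0.20 and 0.052 for Hfe. The share of higher genes among all calls moved with the scaling, from 2741 of 6406 to 3116 of 5963 under quantile normalization. The cause of these differences was not tested. No paired analysis was possible because the labels give no numbers shared between the genotypes. Signals near background limit the dim probes of Tfrc and Cp and the values of Il6, Steap1 and Bmp6.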
